A study of Mus musculus with 2 samples.

Results

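The longest transcribed contigs are stretches of at least 5000 nt of the mouse genome, listed as covered on 1 strand by polyA RNA-seq. They were chosen by length alone from a contig list deposited on build mm9, leaving out chromosomes Y and M. The list holds 647881 contigs, and 1160 of them, or 0.179%, met the rule. On chromosome M 1 contig of 5830 nt was left out, and chromosome Y had 0 of this length. The chosen contigs covered 7628099 nt, which was 3.46% of the 220611207 nt covered by all contigs, and carried 19.8% of the summed product of level and length.

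The RNA came from 8-week C57BL/6J mice, from tissue labelled large intestine and pooled from littermates of both sexes, with 2 libraries numbered as biological replicates under 1 donor record. No treatment, transgene or second tissue was compared. The libraries were stranded, read as pairs of 76 nt, and made from polyA RNA longer than 200 nt. Each library has gene and transcript tables on build mm10, whereas 1 contig list and 1 junction list on build mm9 stand for the whole series.

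The gene tables sum to 50189619 expected counts in replicate 1 and 58233142 in replicate 2, and they depart from the labels in several genes. The colon enterocyte genes Car1 and Aqp8 were at 0.04 to 0.27 TPM (a length-scaled abundance) in both libraries. The small-bowel brush border genes Sis and Lct reached 281 and 152 TPM in replicate 1, against 79.7 and 9.94 in replicate 2. Lyz1, a lysozyme of Paneth cells, stood at 4597 and 6826 TPM, and Krt20, a keratin of mature intestinal epithelium, at 700 and 335 TPM. Xist, the RNA of the inactive X chromosome, had 17 expected counts in replicate 1 and 12563 in replicate 2, and the Y-linked Kdm5d had 1290 and 1, although both libraries carry the label of pooled sexes. The contig list merges these libraries, so its levels have no replicate error and were described without tests.

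A contig is a listed stretch of covered bases, not a transcript model. Neighbouring contigs of 1 strand lay at least 11 nt apart, and whether shorter uncovered gaps were bridged inside a contig was not tested. In mammalian genes the internal exons are short and the last exon, which carries most of the 3′ untranslated region, is usually the longest. Reads of processed mRNA cover exons and skip introns, and a read that skips an intron is recorded as a splice junction, so a contig that spans an intron also holds reads from the intron itself. Some RNAs, such as long nuclear noncoding RNAs, consist of 1 long exon and leave few or no junction reads.

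Lengths ran from 5002 to 20831 nt, with a median of 6030 nt and quartiles of 5429 and 7109 nt. Most contigs lay close to the threshold. At 6000 nt or more there were 592 (51.0%), at 7500 nt or more 239 (20.6%), at 10000 nt or more 61 (5.26%), and at 15000 nt or more 4. Just inside the threshold were contigs of 5002, 5002 and 5003 nt at levels of 2.73, 6.65 and 6.18, and just outside it were 3 of 4998 nt at levels of 14.3, 10 and 1.86. Values next to the threshold thus overlapped on its 2 sides.

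**Figure D1:**
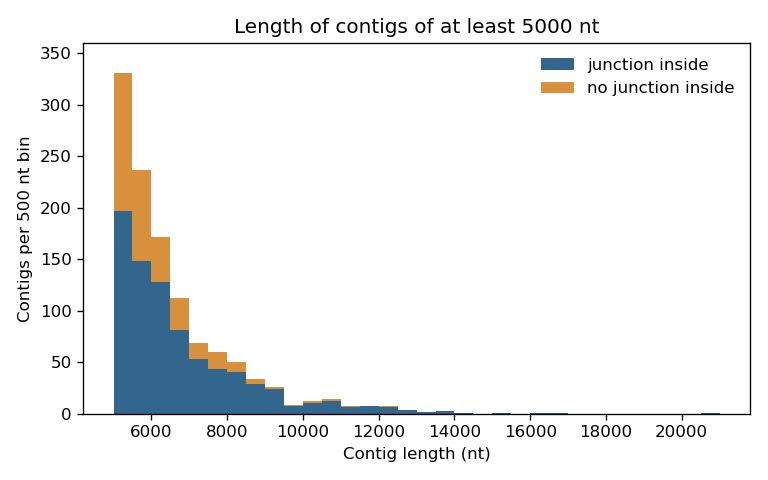
Number of contigs (vertical axis) per 500 nt bin of contig length in nt (horizontal axis), stacked by whether a splice junction of at least 10 reads lay inside the contig. The counts fall steeply from the bin next to 5000 nt, and the 4 contigs beyond 15000 nt all hold a junction.

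The longest contig lay at chr9:34852104-34872934 on the minus strand and measured 20831 nt at a level of 16.6. It held 13 junctions with 17021 reads, and introns made up 71.8% of it. The second, on the plus strand at chr7:35813705-35830513, measured 16809 nt at a level of 20.5, with 4 junctions and 81% of its bases in introns. The third and the fourth, both on the minus strand, were chr6:86597043-86613100 (16058 nt) and chr7:53450373-53465702 (15330 nt). All 10 of the longest contigs held at least 3 junctions, and their levels ran from 9.03 to 48.5. Introns made up over 60% of 9 of these, and the exception was chr15:76001331-76015277, of 13947 nt, with introns over 11.2% of it and an intron-free stretch of 7485 nt at its 3′ side.

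From the values, the deposited level is proportional to another column of the list, read here as summed coverage, over the length of the contig, with nearly the same constant throughout the list. What the constant stands for is not stated. Among the long contigs it had a median of 8.43 (95% order-statistic interval 7.46 to 9.30) and quartiles of 4.12 and 18.4. At a level of 1 or more there were 1140 contigs, at 10 or more 516, and at 100 or more 32. The level spanned from 0.505 to 4170, a ratio of 8257. Long coverage with few gaps needs enough reads, so level is tied to the length rule. Over the whole list the median level was 0.150 for contigs under 200 nt, 1.05 from 1000 to 1999 nt and 3.84 from 2000 nt to under 5000 nt. It was 7.24 from 5000 nt to under 7500 nt, 11.1 from 7500 to 9999 nt and 17.6 at 10000 nt or more.

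**Figure D2:**
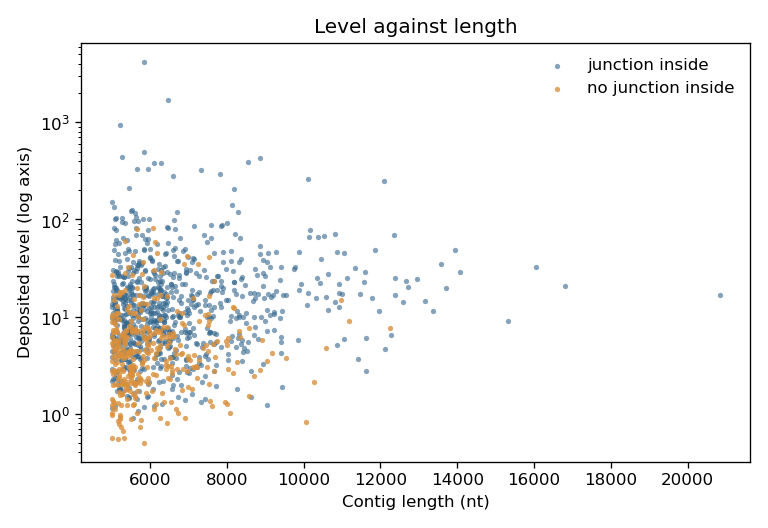
Deposited level (log axis) against length in nt, 1 point per long contig, coloured by whether a junction of at least 10 reads lay inside it. The contigs with no junction inside sit lower, none above 82.1, while the highest reaches 4170.

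The highest level belonged to chr17:39979936-39985779 on the plus strand, a contig of 5844 nt at 4170. This contig alone held 12.5% of the product of level and length over the long contigs, and without it their share of the whole list was 17.4% in place of 19.8%. It held 45 junctions, but these summed to 6969 reads, and its strongest junction had 2589 reads, or 0.621 reads per unit of level. The median over the 805 long contigs with a junction inside was 63.2 reads per unit of level, and 3 contigs were below the value of this one. The second in level, chr12:114493054-114499526 on the minus strand, stood at 1700 and held 30 junctions with 328246 reads. Its strongest junction had 174736 reads, or 102.8 per unit of level. The third was chr10:116724846-116730074, at 943 with 223040 junction reads, and chr17:31260788-31266637 followed at 494 with 43142.

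At the low end, chr15:77630003-77635838 stood at 0.505 and chr19:45656579-45661731 at 0.554. The 5 lowest ran up to 0.670, and none held or was crossed by a junction of at least 10 reads. Each of the 5 lay within the intron of at least 1 junction.

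Every long contig had a reproducibility value of 0, as did 26.7% of the whole list, where the value reaches 0.6. What the value measures is not stated in the files or labels used. The value was 0 for 9.32% of contigs under 200 nt, 81.2% from 500 to 999 nt and 99.5% from 1000 to 1999 nt, so it moved with length and did not separate the long contigs among themselves.

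On the minus strand there were 597 long contigs (51.5%, exact 95% interval 48.6 to 54.4) and on the plus strand 563, against 49.0% minus over all contigs. From 5000 nt to under 7500 nt 458 of 921 were on the minus strand (49.7%, exact 95% interval 46.5 to 53.0), and from 7500 nt to under 10000 nt 53.4% were. At 10000 nt or more 44 of 61 were (72.1%, exact 95% interval 59.2 to 82.9). Below 10000 nt the share lay between 48.8% and 53.4% in each length range, shorter contigs included, so the imbalance rests on these 61 contigs. This split at 10000 nt was looked at after the values were seen. The intervals cover counting error only, and neighbouring contigs of 1 locus are not independent. The median level was 7.85 on the minus and 8.76 on the plus strand.

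By chromosome, the highest counts of long contigs were on 11 (116), 2 (106), 7 (98), 5 (96) and 17 (86). Per 1000 contigs of the same chromosome the number was 1.79 over all of them, highest on chromosome 17 (2.89), 11 (2.45) and 7 (2.41). It was lowest on chromosome 14 (0.866), 3 (0.928) and X (1.08, from 16 contigs).

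Splice junctions of the same strand divided the long contigs into several structures. With at least 10 reads required, 805 contigs (69.4%) held at least 1 whole junction and 355 (30.6%) held 0. At least 5 junctions lay inside 403 contigs, at least 10 inside 160, and at least 20 inside 21. In all, 5049 junctions with 6860933 reads lay inside long contigs. That was 3.87% of the 130634 junctions with at least 10 reads and 16.2% of their reads.

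The introns inside were short. Their median length was 336 nt (quartiles 129 and 958), against 1232 nt (387 and 3262) over all junctions with at least 10 reads, and 1223 of the 5049 were at least 1000 nt long. An intron longer than its contig cannot lie inside, so the rule itself bounds these lengths. In contigs with a junction inside, introns made up a median of 51.2% of the bases (quartiles 31.0 and 68.1%, highest 97.7%), and 414 contigs had over 50% of their bases in introns. Over all long contigs 35.8% of the bases lay in an intron of such a junction. A base counted as intron if any such junction inside the contig spanned it, so exons skipped by a weaker junction can be included. Requiring in addition at least 5% of the reads of the strongest junction in the contig left a median of 48.2%.

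The most junctions, 48 with 247170 reads, lay in chr19:6105174-6117256 on the plus strand, a contig of 12083 nt at a level of 248. Introns covered 71.6% of it. The most junction reads among the named contigs, 475567 over 37 junctions, lay in chr7:29618156-29627029, of 8874 nt at a level of 433. Introns covered 77.3% of that contig. Both contigs were thus covered across many spliced introns.

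**Figure D3:**
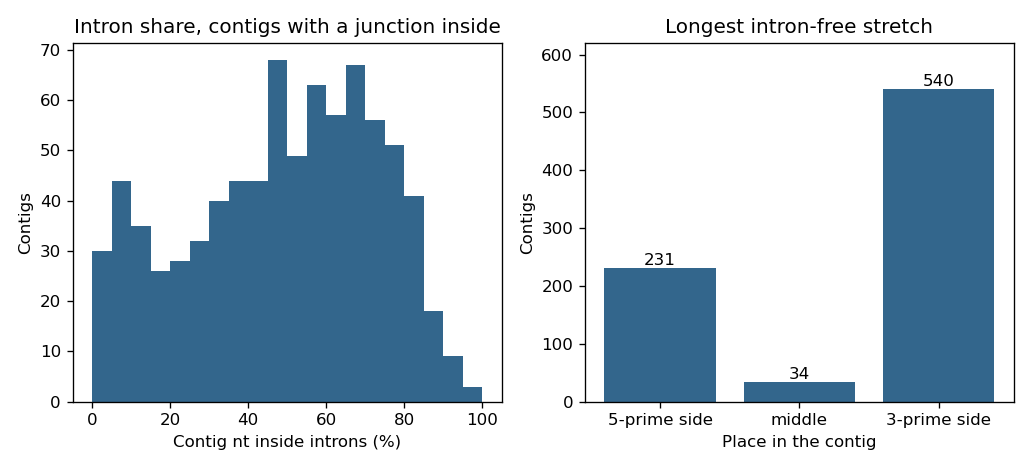
Left, number of long contigs (vertical axis) by the percent of their bases inside introns, for the 805 with a junction inside. Right, number of the same contigs by where their longest intron-free stretch lies, with 540 at the 3′ side, 231 at the 5′ side and 34 in the middle.

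Where introns broke a contig, its longest intron-free stretch lay at the 3′ side in 540 of 805 (67.1%), at the 5′ side in 231 (28.7%) and in the middle in 34 (4.22%). The median stretch was 2116 nt at the 3′ side, 1666 nt at the 5′ side and 1416 nt in the middle. For comparison, the 9996 contigs of 2000 nt to under 5000 nt held a junction in 39.5% of cases, and their longest stretch was at the 3′ side in 59.6% of those. Introns made up a median of 42.4% of the shorter contigs that held a junction. A longer contig has more room for a junction, and the part of length in these differences was not tested.

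An intron-free stretch of at least 5000 nt occurred in 408 long contigs (35.2%). Of these, 355 had no junction inside at all and 53 had one or more beside the long stretch. The other 752 contigs reached 5000 nt only with bases counted as intron, which can include exons skipped by a weaker junction. The median level was 4.56 with such a stretch and 12.1 without it. Contigs with no junction inside had a median level of 4.25 (quartiles 2.31 and 7.25), against 11.8 (5.78 and 24.1) for those with one. A junction reaches 10 reads more easily at a higher level, and the part of this in the difference was not tested. The median lengths of the 2 sets were 5679 and 6239 nt.

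The longest intron-free stretch, chosen for mention after its value was seen, was the contig chr16:24980418-24992664 on the plus strand. It measured 12247 nt at a level of 7.69, and neither held nor was crossed by a junction of at least 10 reads. The next, chr15:72926277-72937463 on the minus strand, had 11187 nt at a level of 9.02. It was crossed on its upstream side by 1 junction with 361 reads. The third, chr5:113509498-113520469, had 10972 nt at 14.9 and was crossed upstream with 308 reads and downstream with 24. No junction of at least 10 reads lay inside these 3 contigs, and their connections to other exons differed.

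A junction with 1 end in a contig and the other outside connects it to an exon elsewhere, on the upstream (5′) or the downstream (3′) side by the contig's strand. Of the 355 contigs with no junction inside, 206 (58.0%) were crossed upstream only, 18 (5.07%) downstream only, 36 (10.1%) on both sides and 95 (26.8%) on neither. The upstream-only contigs had a median level of 6.08, and those connected on neither side 2.28. Of the 805 contigs with a junction inside, 484 (60.1%) were crossed upstream only, 37 (4.60%) downstream only, 214 (26.6%) on both sides and 70 (8.70%) on neither. In both sets the upstream side alone was the most frequent pattern. Counting reads, 813 long contigs had more upstream than downstream crossing reads and 182 had more downstream. This count of crossings was added after the data had been seen.

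**Figure D4:**
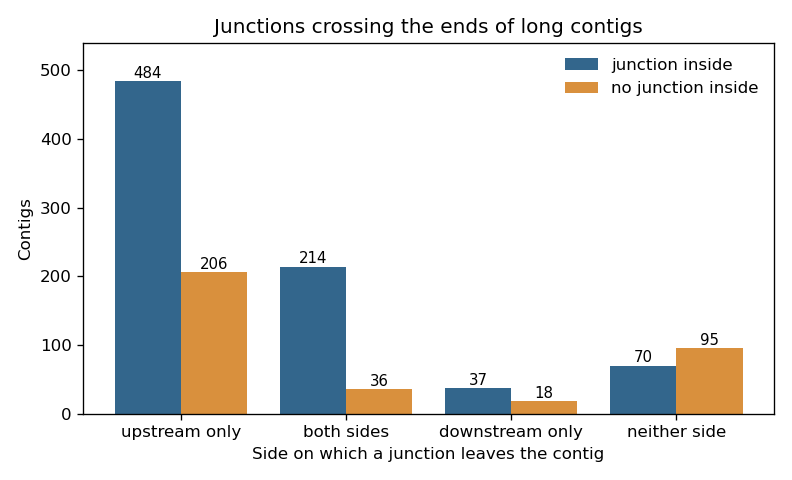
Number of long contigs (vertical axis) by the side on which a junction of at least 10 reads leaves the contig, separately for contigs with and without a junction inside. Upstream-only contigs are the tallest pair of bars, at 484 and 206.

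Among the 9996 contigs of 2000 nt to under 5000 nt, those with no junction inside were crossed upstream only in 40.5% of cases and on neither side in 38.5%. Crossing junctions rarely started exactly at the end of a long contig. A junction end within 10 nt of the contig end was found at the 5′ end only in 88 contigs, at the 3′ end only in 16, at both ends in 2 and at neither in 1054 (90.9%). The 5′-end contig with the most junction reads was chr15:36525415-36530765, at a level of 91.0 with 9 junctions and 39036 reads inside. The 3′-end counterpart was chr19:4125929-4131286, at 12 with 5758 reads inside and 2534 leaving downstream. The 2 contigs that met a junction at both ends were chr8:74897714-74903061 at 6.01 and chr7:142885915-142892756 at 4.24. The latter, of 6842 nt, had 17 reads entering upstream, 13 leaving downstream and 0 junctions inside.

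The 95 contigs that no junction of at least 10 reads touched were mostly low, with a median level of 2.28. The highest of them was chr19:5795690-5802662 on the minus strand, of 6973 nt at a level of 41.6. Its touching junctions of any count summed to 20 reads in each of the 2 read count fields. It was followed by chr17:56396201-56402900 at 11.5 and chr19:9086974-9093811 at 10.9. These contigs were chosen for mention after their values were seen. With junctions of any count included, 15 long contigs still had 0 touching reads.

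Lying whole within the intron of a junction with at least 10 reads was found for 145 contigs (12.5%), at a median level of 8.97. In contigs of 2000 nt to under 5000 nt the share was 17.3%. Of these, chr15:101826921-101832190 stood at 444 with 139061 reads inside and lay within 5 such introns. Another, chr7:28897763-28905942, stood at 208 with 88801 reads inside and lay within 10. Such contigs were thus not all low.

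Contigs on the opposite strand overlapped 634 long contigs (54.7%). The overlap was small in most of them. It covered a median of 5.25% of the long contig (quartiles 2.61 and 13.4%, highest 97.9%), and 6.55% of all long-contig bases. In contigs of 2000 nt to under 5000 nt fewer had an overlap (32.6%), but the share of bases was 6.34%. The opposite contig with the longest overlap had a median level of 0.253, or 4.37% of the level of the long contig. In 431 of the 634 (68.0%) it was under 10% of that level, and in 50 it was higher. Whether weak opposite coverage came from antisense RNA or from reads assigned to the wrong strand was not tested.

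Long contigs faced each other on opposite strands in 8 pairs. The longest shared stretch was 7316 nt on chromosome 17, between chr17:29834810-29842914 on the plus strand (level 5.55) and chr17:29833071-29842125 on the minus strand (level 1.23). On chromosome 9, chr9:107951537-107958130 on the plus strand (15.8) and chr9:107953391-107958667 on the minus strand (5.61) shared 4740 nt. The pair on chromosome 8 shared 3422 nt, with the minus-strand contig chr8:86620921-86627216 higher (21.5) than the plus-strand contig chr8:86618480-86624342 (6.10). All 6 of these contigs held junctions on their own strand, from 2 with 36 reads in the weakest to 13 with 6213 reads.

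Neighbouring long contigs may belong to 1 transcript or locus. With 20000 nt as the largest gap on 1 strand, 180 long contigs (15.5%) fell into 85 groups, of which 76 had 2 contigs, 8 had 3 and 1 had 4. The group of 4 spanned 72211 nt of the minus strand, from 34603465 to 34675675 on chromosome 17. Its contigs measured 10914, 11350, 14071 and 7674 nt at levels of 17.6, 31.3, 28.9 and 12.7. They held 11, 20, 13 and 3 junctions.

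The junction list gives 2 read count fields per junction that sum to its read count, with totals of 20305017 reads in the first and 22732327 in the second. Which library each field stands for is not stated, so they were set side by side as fields, with 1 value against 1 and no test. With each field scaled to its total, the log2 ratio of second to first over the junctions touching a long contig had a median of −0.14 over 1090 contigs with at least 10 such reads. Over all 121379 contigs with at least 10 reads the median was −0.30. More than 2-fold higher in the second field were 11 long contigs (1.01%), against 4.63% of all contigs. More than 2-fold higher in the first were 113 (10.4%), against 20.3%. The long contigs had more reads behind each value, with a median of 1237 against 89. At 50 or more reads the shares were 0.794% against 1.97%, and 8.74% against 15.5%. The fields were also scaled by their median ratio over junctions (−0.23). Then 30 of the 1090 long contigs were more than 2-fold higher in the second field, against 7.34% of all contigs. In the first field 71 of the 1090 were, against 14.5% of all contigs.

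**Figure D5:**
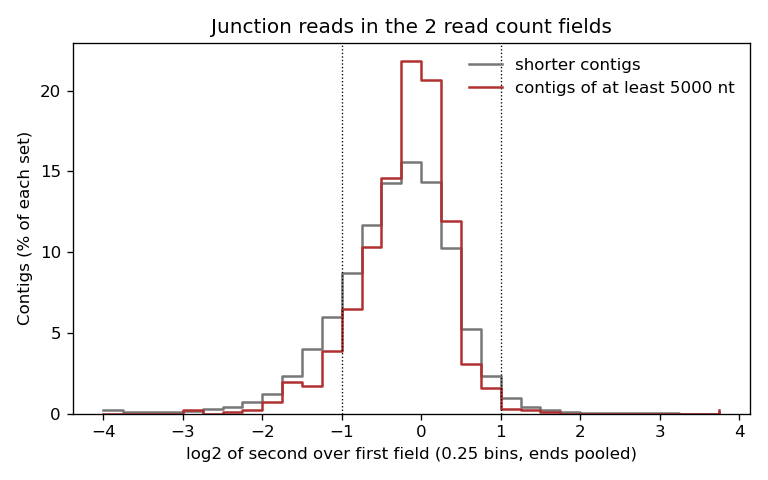
Percent of contigs in each set (vertical axis) by the log2 ratio of the second to the first read count field (horizontal axis, bins of 0.25, values beyond the ends pooled), for long and for shorter contigs with at least 50 touching reads. Dotted lines mark 2-fold, and the 1007 long contigs have a median of −0.13 and quartiles of −0.51 and 0.15.

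The largest differences toward the second field were at 2 neighbouring contigs on the minus strand of chromosome X. For chrX:100655799-100663380, of 7582 nt at a level of 9.68, the first field had 0 touching reads and the second 120, at least 35.7-fold higher against a floor of 3 reads. For chrX:100668936-100675641, of 6706 nt at 2.88, the fields had 0 and 110 reads, at least 32.8-fold higher. In the gene tables Xist had 17 and 12563 expected counts in replicates 1 and 2, on another build, and its part in these values was not tested. The next was chr4:115830089-115838328, with 2184 and 8204 reads (log2 1.75). With at least 50 touching reads, only the 2 chromosome X contigs had 0 reads in a field among the 10 named for this difference.

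Toward the first field, chr5:32620658-32627248 had 8188 and 1279 reads (log2 −2.84). The contig chr19:5879916-5886095 had 1390 and 229 (log2 −2.76). At chr1:90155684-90163421 the fields had 404 and 94 reads (log2 −2.26). All 3 were touched by reads in both fields. The contigs of highest level differed by less, with 2675 and 5287 reads at the highest contig (log2 0.82) and 314277 and 188984 at the second (log2 −0.90).

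The gene tables give context for exons of this length, without a link from any mm9 contig to an mm10 gene. In the GENCODE M21 annotation of mm10, 1409 genes of the tables have an exon of at least 5000 nt, and 727 of them had at least 1 TPM in both libraries. Of these, 715 (98.4%) were protein-coding. The detected share and the protein-coding share over all genes were not computed, so neither is read as particular to long-exon genes. The median of the 727 was 7.37 TPM in replicate 1 and 5.02 in replicate 2. These lay below the medians of all 12949 genes at this minimum (12.5 and 10.7 TPM). A gene with a long annotated exon need not use it. By transcript identifier, the transcript tables hold a long-exon transcript for 620 of the 727, and in 341 it carried most of the gene's TPM in both libraries. The TPM values rest on GENCODE M4, and whether its transcripts hold the exon at the M21 length was not checked.

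In the 8 of the 10 genes of highest TPM with a long-exon transcript in the tables, most of the TPM was on other transcripts. Srrm2, which encodes a scaffold protein of nuclear speckles and the spliceosome, had 314 and 231 TPM in replicates 1 and 2. Of that, 16.5% and 13.7% was on its 2 transcripts with an exon of at least 5000 nt. Its longest exon has 6569 nt (exon 11, chr17:23815122-23821690 in mm10), and whether both transcripts hold it was not checked, here or for the next 2 genes with 2 such transcripts. Neat1, the noncoding RNA that scaffolds paraspeckles, had 264.9 and 166 TPM, with 3.27% and 2.83% on the transcript of 20771 nt. Apob, the structural protein of chylomicrons, had 166 and 99.5 TPM, with 38.0% and 16.2% on its 2 long-exon transcripts. Its longest exon is exon 26, of 7467 nt. Slc43a2, an amino acid transporter, had 249 and 100.05 TPM, with 43.9% and 47.0% on its 2 long-exon transcripts. Its longest exon is the last, of 5261 nt. Rab11b, a GTPase of recycling endosomes, had 222 and 220.2 TPM and has a last exon of 5330 nt. Of its 2 long-exon transcripts 1 is in the tables, with 3.52% and 3.04% of that TPM. For Atp5l, a subunit of ATP synthase at 393 and 392 TPM, the long-exon transcript is not in the tables used.

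The longest exon annotated in M21 among detected genes, 122802 nt, belongs to D10Wsu102e, a gene at 6.07 and 5.95 TPM in the 2 libraries. Its expected counts were 886 and 1132, and whether RNA covered the exon over that length was not tested. Zbtb20, a zinc-finger transcription factor, has an exon of 24280 nt, and the transcript with it held 28.7% and 27.5% of 3.94 and 2.47 TPM. Hnrnpr, an RNA-binding protein, has one of 20029 nt with 3.80% and 2.09% of 6.58 and 6.21 TPM. D1Ertd622e has one of 40044 nt, and the transcript with it held 0.346% and 0.272% of 43.33 and 33.04 TPM. The annotated exons of D10Wsu102e, D1Ertd622e and Zbtb20 are longer than the longest contig of the mm9 list.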

How the data were processed

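The contig list of the whole series was deposited on mm9. The contig level is a deposited signal (coverage), which is near the ninth column (read here as summed coverage, not defined in the file) divided by length and a constant (median 18.9, from the values). The reproducibility value is a deposited score without a stated definition. Junction read counts were deposited as whole numbers. The sources used here name no aligner or contig caller. The gene tables hold deposited expected counts, TPM and FPKM on mm10 with GENCODE M4, per the accompanying notes. Exons came from GENCODE M21 and were joined to the transcript values by transcript identifier.

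Contigs of at least 5000 nt were compared with same-strand junctions of at least 10 reads (Python 3.11.15, pandas 2.3.3, numpy 2.4.6, scipy 1.17.1). Field ratios had 0.5 reads added and were scaled to field totals. Whether a junction lay inside or crossed 1 side, the intron bases and the field ratios were tested on simulated data, and the other steps were not. Each simulated contig had at most 1 junction of at least 10 reads. Overlapping junctions, crossings on both sides, the end classes and the place of the longest stretch were thus not tested. The simulated field counts carried counting error only, beside set changes. No p-value was computed, since 1 list or 1 field has no replicate. Positions have 1-based starts. No mm9 genome or annotation was used here, so contigs carry no gene name or sequence.

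Members and lists were chosen with earlier results of these data known. The rule for named contigs takes the 10 longest, the 10 highest and 5 lowest in level, 3 on each side of the threshold, 3 per junction class by reads, 5 per direction of the field difference at 50 or more reads, 3 opposite pairs and the 3 largest groups, and for genes the 10 highest in TPM and 5 with the longest exon. The text prints some of these.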

Additional observations from a re-analysis of the deposited data

How the results depend on the processing

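The contig list is 1 pooled list, so these values have no replicate error, and how they vary with depth was not tested. Of 68 alternative values 38 stayed within 1.5 times the reported count or within an interval over the contigs. These intervals, as for the median level and the strand share, take contigs of 1 list as units and hold no replicate error. The number of contigs became 2361 at a minimum of 4000 nt, 239 at 7500 nt, 61 at 10000 nt and 3465 with gaps of up to 100 nt on 1 strand joined. The median level rose to 14.3 at 7500 nt and 17.6 at 10000 nt, and its ratio to the median of the other contigs fell from 45.5 to 5.20 when those were limited to 1000 nt to under 5000 nt. With an overlap of at least 500 nt and 50% of the opposite contig, 137 were overlapped in place of 634.

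Junction ends met the 5′ end only in 9 contigs at a tolerance of 0 nt and 143 at 50 nt, and the 3′ end only in 6 and 35. Both ends were met in 0 at 0 nt, 4 at 1 read, 1 at 50 reads, and 1 from either the first or the second field alone. With a junction end anywhere in the contig, added after the data were seen, the numbers were 690 at the 5′ side, 55 at the 3′ side, 250 at both and 165 at neither. A minimum of 1 read placed 1120 contigs inside an intron, 50 reads 57 and the first field alone 87, against 145. At 1 read, 138 contigs kept an intron-free stretch of 5000 nt, 44 with no junction inside were crossed upstream only, and 15 were touched by no junction, against 187 at 50 reads. A 4-fold limit left 15 long contigs with a difference between the fields in either direction, in place of 124. The share of all contigs past 4-fold was not computed, so the 15 are not compared with the rest of the list. At 5 TPM 362 long-exon genes were detected, and 736 and 797 at 1 TPM without replicate 1 and without replicate 2. The causes were not tested. No paired analysis was possible because the labels give 1 group.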
